A study of Mus musculus with 4 samples.

Results

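Complex I, the NADH:ubiquinone oxidoreductase, is the entry point of the mitochondrial respiratory chain. It takes electrons from NADH through a flavin and a chain of iron-sulfur clusters to ubiquinone and pumps protons across the inner membrane. Its core subunits carry the chemistry and are shared with bacteria, its accessory subunits surround that core, and assembly factors build the enzyme without staying in it. The genes described here are all rows of the deposited table whose symbol begins with Nduf, apart from Ndufa4, whose product belongs to complex IV. There were 49 such rows among 16442 genes: 7 nuclear core subunits, 30 accessory subunits, 8 assembly factors of the Ndufaf family and 4 pseudogenes. The symbol alone chose them. The pseudogenes (Ndufs5-ps, Ndufa12-ps, Ndufab1-ps and Ndufb4c) are kept apart from the subunits below. Ndufb1-ps is counted with the accessory subunits, because RefSeq lists that symbol as an older name of the protein-coding gene Ndufb1.

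Leukaemia stem cells, the cells of a leukaemia able to restart it, were taken from mouse bone marrow, and their poly(A) RNA was sequenced. The KO group (2 libraries) comes from mice with an Rreb1 knockout and the WT group (2 libraries) from wild-type mice, all C57BL/6 with leukaemia. The labels do not state age, sex, the driver of the leukaemia, the part of Rreb1 removed or any pooling of animals. The genotype label of the second KO library names Rreb2, and an extraction note names tumour-associated macrophages, so the libraries are grouped by their titles. Rreb1, which encodes a zinc-finger transcription factor, was at 6.10 and 6.93 FPKM in KO libraries, against 5.24 and 6.57 FPKM in WT libraries. Those ranges overlap, and a whole-gene value cannot show the loss of a short part, so KO and WT stand for the labels.

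Depth was 16590830 to 18451251 assigned reads a library. FPKM is a gene's fragment count scaled by its exon length and by the depth of the library. The stem cell genes Hoxa9, Meis1 and Kit were present at 7.15 FPKM or more in KO libraries and at 3.65 FPKM or more in WT libraries. All 3 were higher in both KO libraries than in both WT libraries, beside 30.5% of all tested genes. Kit differed most, with 7.36 and 7.15 FPKM in KO and 3.65 and 4.25 FPKM in WT (log2 fold change 0.74, limma adjusted p = 0.051). Markers of other marrow cells also differed between the groups. Mature neutrophil markers summed to 2927 and 3511 FPKM in KO libraries, against 1266 and 1292 FPKM in WT libraries, and 7 of 10 rose. Erythroid markers summed to 421 and 514 FPKM in KO libraries, against 92.6 and 83.5 FPKM in WT libraries, and 5 of 6 tested rose. Macrophage markers summed to 307 and 288 FPKM in KO libraries, against 481 and 421 FPKM in WT libraries, and 4 of 7 tested fell. B cell markers summed to 135 and 119 FPKM in KO libraries, against 222 and 212 FPKM in WT libraries, and 2 of 4 tested fell. Basophil and mast cell markers summed to 269 and 263 FPKM in KO libraries, against 468 and 534 FPKM in WT libraries, and 2 of 3 fell. No change passed the test among 4 granulocyte precursor, 5 T and NK cell and 2 megakaryocyte markers tested. Still, 4 of the 5 T and NK cell markers were lower in both KO libraries and 1 was higher, beside 24.9% and 30.5% of all tested genes. The precursor marker Mpo had 192 and 166 FPKM in KO and 399 and 309 FPKM in WT (log2 fold change −0.97, limma adjusted p = 0.053). The groups overlapped for the other 3 precursor markers. No listed marker with a row in the table was at 0 in any library. The part of these cell types in the complex I values was not tested, and in bulk RNA fewer cells of a type and less RNA per cell cannot be told apart.

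None of the 47 complex I genes tested rose or fell at an adjusted p below 0.05 (limma on log2(FPKM + 1), Benjamini-Hochberg over the 11768 genes whose mean reached 1 FPKM). Over all tested genes 0.603% rose and 0.408% fell. At an unadjusted p below 0.05, 5 complex I genes were higher and 9 lower in KO, against 11.4% and 9.35% of all tested genes. The 95% limits of the 45 tested genes other than pseudogenes lay between −0.68 and 0.63 on the scale of log2(FPKM + 1). Each limit is for 1 gene, with no correction for the number of genes, so their range is not a bound on all changes. By limma-voom on reads recovered from the table, 1 complex I gene passed, Ndufb7, where 3.15% of all genes tested that way were higher. The p-values measure only the spread between these libraries, pooled over genes by limma. The labels name 2 biological replicates per genotype and no batch, and do not state any pooling of animals. A permutation test of 1 gene with 2 libraries against 2 could not go below 0.333.

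The direction differed between the kinds of gene. The median log2 fold change was −0.02 for the 7 core subunits, 0.12 for the 30 accessory subunits and −0.17 for the 8 assembly factors, beside 0.03 over all tested genes. Both KO libraries lay above both WT libraries for 15 accessory subunits, 0 core subunits and 0 assembly factors, against 30.5% of all tested genes. They lay below both WT libraries for 6 accessory subunits, 3 core subunits and 4 assembly factors, against 24.9% of all tested genes. The other 9, 4 and 4 overlapped. Without WT replicate 2 the accessory median was 0.07, and without KO replicate 2 that of the assembly factors was −0.09. The core median was −0.10 without WT replicate 1 and −0.08 without KO replicate 1. These counts describe the lists, and the difference between them was not tested.

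**Figure D1:**
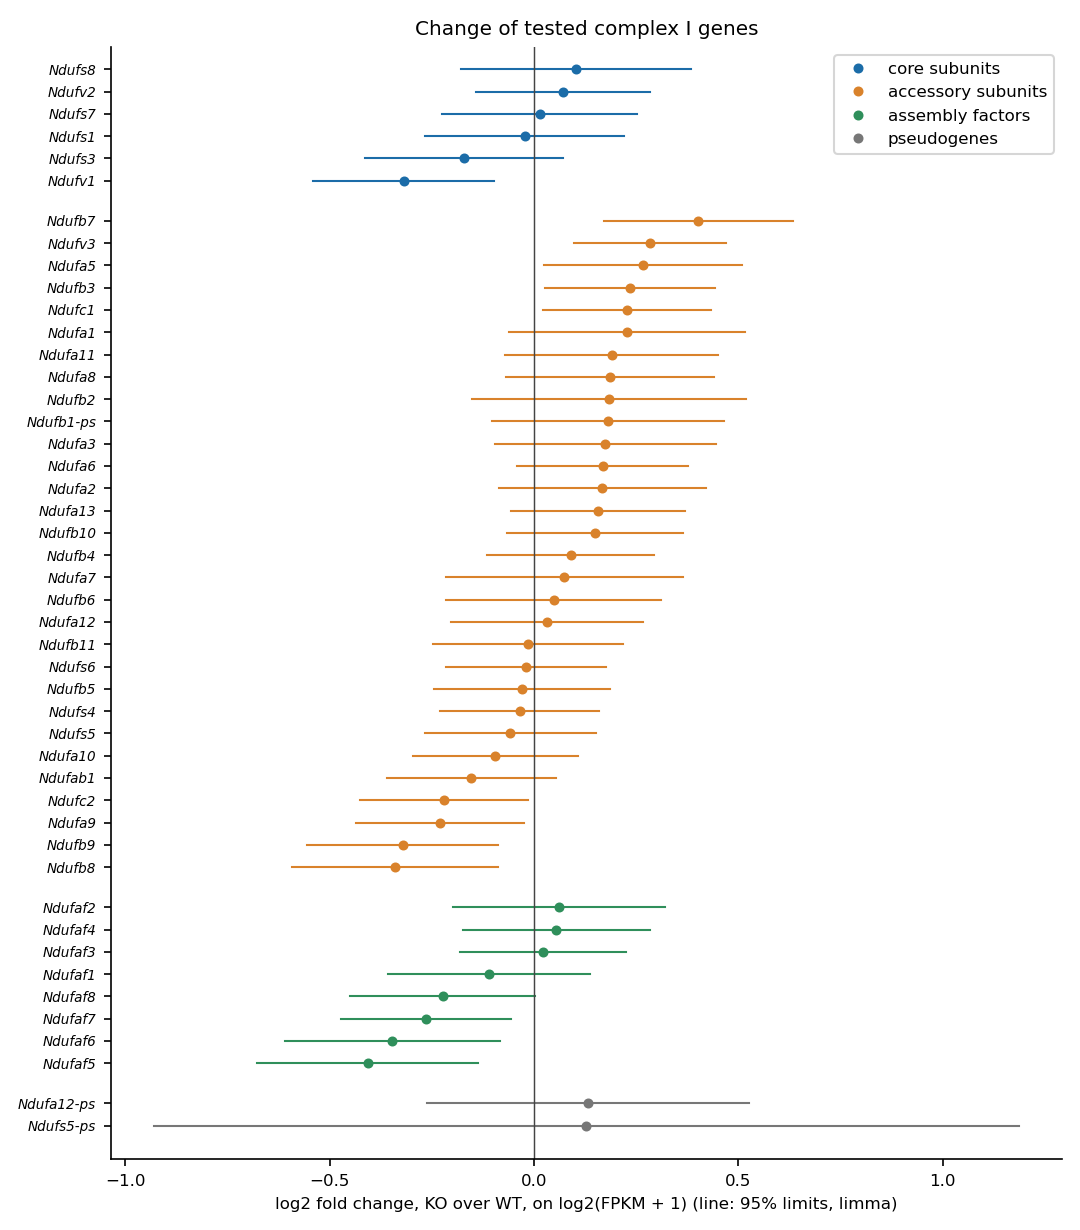
Log2 fold change of tested complex I genes, KO over WT on log2(FPKM + 1), with 95% limits from limma as lines, grouped by role. The accessory subunits run from −0.34 (Ndufb8) to 0.40 (Ndufb7), and the 8 assembly factors from −0.41 (Ndufaf5) to 0.06 (Ndufaf2).

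Levels of the core subunits, which carry the redox centres, spanned 15.7-fold in FPKM, from Ndufs1 at a mean of 13.0 to Ndufs8 at 204 over the 4 libraries. Ndufv1, which binds NADH and the flavin, had 61.0 and 54.2 FPKM in KO libraries, against 71.4 and 72.5 FPKM in WT libraries. The groups did not overlap, with a log2 fold change of −0.32 (SE 0.091, limma adjusted p = 0.156). Ndufs3, a subunit of the ubiquinone-binding (Q) arm, had 51.0 and 43.6 FPKM in KO libraries, against 53.3 and 53.2 FPKM in WT libraries. Its second KO library stood lowest, and without KO replicate 2 or KO replicate 1 the log2 fold change of −0.17 moved within −0.28 to −0.06.

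The groups overlapped for 4 core subunits. Ndufs8, which holds a pair of iron-sulfur clusters, was the highest, with 207 and 216 FPKM in KO libraries and 216 and 179 FPKM in WT libraries. Its second WT library was the low one. Ndufs7, which holds the last cluster before ubiquinone, had 108 and 95.05 FPKM in KO libraries and 104 and 97.2 FPKM in WT libraries. Ndufv2, a cluster-bearing partner of Ndufv1, had 137 and 130 FPKM in KO libraries and 131 and 123 FPKM in WT libraries. Ndufs1, the largest cluster-bearing subunit, had 12.3 and 13.4 FPKM in KO libraries and 12.3 and 13.9 FPKM in WT libraries. None of the 7 core subunits passed the test.

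**Figure D2:**
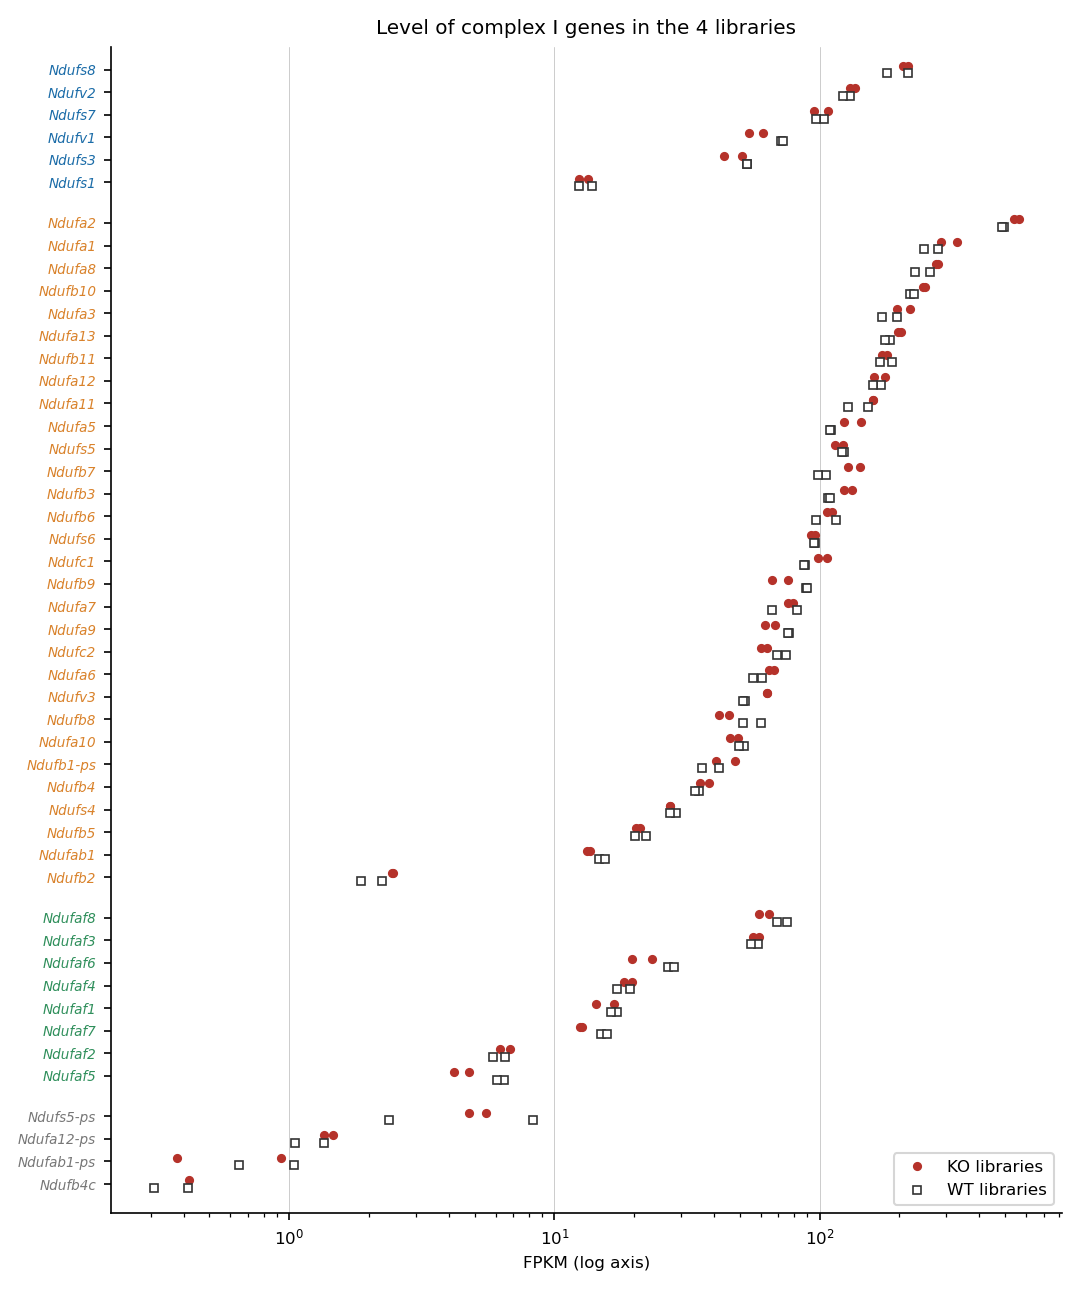
FPKM of complex I genes (log axis), one row a gene, with the 2 KO libraries as filled circles above the 2 WT libraries as open squares, and gene names coloured by role. Values run from under 1 FPKM for the pseudogenes Ndufab1-ps and Ndufb4c, whose second KO library at 0 is not drawn, to over 500 FPKM for Ndufa2.

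Accessory subunits held the highest levels among the nuclear complex I genes, led by Ndufa2 with 543 and 564 FPKM in KO libraries, against 498 and 488 FPKM in WT libraries. Ndufa2 belongs to the NADH-binding (N) arm, and both KO libraries were above both WT libraries (log2 fold change 0.17, limma adjusted p = 0.395). The largest positive value belonged to Ndufb7, a cysteine-rich subunit on the outer face of the distal membrane arm (GRCm38 chromosome 8, 83566671 to 83571626, plus strand). Ndufb7 had 128 and 142 FPKM in KO libraries, against 106 and 98.6 FPKM in WT libraries, from 10683 and 10959 reads in KO and 8807 and 7394 in WT. The groups did not overlap, and the log2 fold change was 0.40 (95% limits 0.17 to 0.63, SE 0.095, limma adjusted p = 0.116; limma-voom adjusted p = 0.043). Ndufv3, a small subunit of the N arm next to the flavin, had 63.3 and 63.1 FPKM in KO libraries, against 52.1 and 51.4 FPKM in WT libraries. Replicates of Ndufv3 lay close together in each group, with a log2 fold change of 0.28 (SE 0.076, limma adjusted p = 0.143).

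Further accessory subunits with higher values in both KO libraries were spread over the enzyme. Ndufa5, a matrix-side subunit of the Q arm, averaged 133 ± 13.6 FPKM in KO and 110 ± 0.993 in WT (SD, n = 2 each), a log2 fold change of 0.27. Ndufb3, a membrane-spanning subunit of the distal arm, averaged 128 ± 6.22 FPKM in KO and 108 ± 1.75 in WT, a log2 fold change of 0.23. Ndufc1, in the proximal membrane arm, averaged 103 ± 5.62 FPKM in KO and 87.5 ± 0.581 in WT, also 0.23. The limma adjusted p of these genes were 0.212, 0.205 and 0.210. The remaining accessory subunits whose KO libraries were both higher were Ndufa1, Ndufa3, Ndufa6, Ndufa8, Ndufa11, Ndufa13, Ndufb2, Ndufb4 and Ndufb10, with log2 fold changes of 0.09 (Ndufb4) to 0.23 (Ndufa1). Adjusted p in these genes was no lower than 0.316.

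Accessory subunits with lower values in both KO libraries also came from more than 1 arm. Ndufb8, a membrane-spanning subunit of the distal arm (GRCm38 chromosome 19, 44548572 to 44555440, minus strand), had 45.6 and 41.8 FPKM in KO libraries, against 59.9 and 51.5 FPKM in WT libraries. Its log2 fold change was −0.34 (SE 0.10, limma adjusted p = 0.167). Ndufb9, a distal subunit of the LYR family that contacts an acyl carrier protein, had 76.2 and 66.3 FPKM in KO libraries, against 88.5 and 89.6 FPKM in WT libraries, a log2 fold change of −0.32 (adjusted p = 0.163). Both genes share exon bases with another annotated gene, 134 bases with Gm20538 and 201 bases with Gm49356, so some of their reads cannot be assigned with certainty. The same holds for other members: the principal mRNAs of 16 share from 4 to 375 bases with another gene, the longest stretches being in Ndufa13 (375), Ndufb6 (257), Ndufs1 (248), Ndufb2 (229) and Ndufb5 (216). Ndufa9, a Q arm subunit that binds a nucleotide, averaged 65.1 ± 3.91 FPKM in KO and 76.4 ± 0.560 in WT, a log2 fold change of −0.23. Ndufc2, of the proximal arm, had 63.1 and 60.2 FPKM in KO libraries, against 74.6 and 69.4 FPKM in WT libraries, a log2 fold change of −0.22. The last of the 6 were Ndufa10 (−0.09) and Ndufab1 (−0.15), the mitochondrial acyl carrier protein.

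Another 9 accessory subunits overlapped between the groups, with log2 fold changes of −0.06 (Ndufs5) to 0.18 (Ndufb1-ps). They include Ndufs4 and Ndufs6 of the N arm, at −0.04 and −0.02, and Ndufa12, also of the N arm, at 0.03. Ndufs4 had 27.3 and 27.3 FPKM in KO libraries, against 28.7 and 27.2 FPKM in WT libraries. By arm, the median log2 fold change was 0.03 over 9 N arm genes, −0.08 over 6 Q arm genes, 0.17 over 8 proximal membrane arm genes and 0.09 over 11 distal membrane arm genes. In the proximal arm 5 of 8 genes had both KO libraries higher and 2 both lower, and in the Q arm 1 of 6 was higher and 3 lower, beside 30.5% higher and 24.9% lower over all tested genes. The N arm had 2 of 9 higher and 1 lower and the distal arm 5 of 11 higher and 2 lower. Of 3 subunits given no arm here (Ndufa6, Ndufa11 and Ndufab1), 2 were higher and 1 lower, with a median of 0.17.

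Assembly factors had a lower median level, 17.4 FPKM, than accessory subunits, 95.2 FPKM, with means from 5.37 FPKM (Ndufaf5) to 67.0 FPKM (Ndufaf8). Ndufaf5, an enzyme that hydroxylates an arginine of Ndufs7 (GRCm38 chromosome 2, 140170649 to 140203689, plus strand), had 4.76 and 4.20 FPKM in KO libraries, against 6.45 and 6.06 FPKM in WT libraries. The groups did not overlap, and the log2 fold change was −0.41 (95% limits −0.68 to −0.14, SE 0.11, limma adjusted p = 0.144), the largest negative value of the 47 genes. Few reads stand behind it, 157 and 128 in KO and 213 and 180 in WT. Ndufaf8, the partner of Ndufaf5, had 64.4 and 59.0 FPKM in KO libraries, against 75.6 and 68.8 FPKM in WT libraries (log2 fold change −0.22, adjusted p = 0.244).

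Ndufaf7, a methyltransferase that acts in assembly, had 12.8 and 12.5 FPKM in KO libraries, against 15.0 and 15.8 FPKM in WT libraries. Both KO libraries were lower (log2 fold change −0.26, adjusted p = 0.181), whereas Ndufs7, the substrate of Ndufaf5, overlapped. Ndufaf6, needed early in assembly, had 23.4 and 19.5 FPKM in KO libraries, against 26.7 and 28.3 FPKM in WT libraries (log2 fold change −0.35, adjusted p = 0.173). Ndufaf3 and Ndufaf4, which act as a pair on the Q arm, had log2 fold changes of 0.02 and 0.05, Ndufaf2, which acts late, 0.06, and Ndufaf1 −0.11, all with overlapping groups. For Ndufaf2, 1955 exon bases are shared with B230220B15Rik, 0 of them in its principal mRNA.

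Assembly factors outside the Nduf naming were examined as a list of 13, of which 12 were tested. None rose or fell at an adjusted p below 0.05, 11 of the 12 log2 fold changes were below 0, against 5412 of 11768 over all tested genes, and the median was −0.12. Both KO libraries were below both WT libraries for 9 of them, beside 24.9% of all tested genes, and above for 1, Sfxn4, beside 30.5%. Dmac1, needed for the distal membrane arm, had 38.5 and 37.8 FPKM in KO libraries, against 45.4 and 47.7 FPKM in WT libraries (log2 fold change −0.28, limma adjusted p = 0.151). Acad9, of the MCIA complex that builds the membrane arm with Ndufaf1, had 4.90 and 4.59 FPKM in KO libraries, against 6.42 and 5.82 FPKM in WT libraries (−0.31, adjusted p = 0.197). Its MCIA partners Tmem126b and Ecsit had −0.22 and −0.18.

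The other core subunits of complex I are encoded by mitochondrial DNA. mt-Nd1, which lies beside the ubiquinone pocket, had 3736 and 6367 FPKM in KO libraries and 3354 and 4878.5 FPKM in WT libraries. The second library of each group was the higher one, and the groups overlapped for all 6 genes tested. mt-Nd2 had 262 and 378 FPKM in KO libraries and 189 and 267 FPKM in WT libraries (log2 fold change 0.48, SE 0.23, limma adjusted p = 0.279). The median over the 6 was 0.26, and mt-Nd4l, at no more than 1.42 FPKM, was not tested.

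Set against the other respiratory complexes, the mean log2(FPKM + 1) of the complex I genes was 1.20 and 1.29 above that of complex II genes in KO libraries, against 1.05 and 1.04 in WT libraries. Complex II, the succinate dehydrogenase, had 6 of 8 genes with both KO libraries below both WT libraries, beside 24.9% of all tested genes, and a median of −0.23. The same level difference from complex III was −1.55 and −1.55 in KO libraries and −1.60 and −1.55 in WT libraries, and from complex IV −1.88 and −1.91 in KO and −1.91 and −1.89 in WT. The sets are unlike. The 47 complex I genes include assembly factors and pseudogenes, and the complex II list includes assembly factors at low levels. The complex III and IV lists hold subunits only, so differences in level between complexes depend on list membership. The 37 complex I subunits alone averaged 6.35 and 6.36 in KO and 6.36 and 6.28 in WT. Complex III genes averaged 7.36 and 7.35 in KO and 7.42 and 7.33 in WT, and complex IV genes 7.69 and 7.71, and 7.72 and 7.67. Medians were 0.09 for 9 complex III genes and −0.05 for 11 complex IV genes. In each of these complexes both KO libraries were lower for 3 genes and higher for 3, beside 24.9% and 30.5% of all tested genes. Within complex I, core minus accessory mean level was −0.26 and −0.36 in KO libraries, against −0.18 and −0.13 in WT libraries, and assembly factors minus accessory subunits −2.12 and −2.25 in KO, against −2.02 and −1.92 in WT. Both differences were larger in size in both KO libraries. These are descriptions of 4 libraries, and no test was made of any list.

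**Figure D3:**
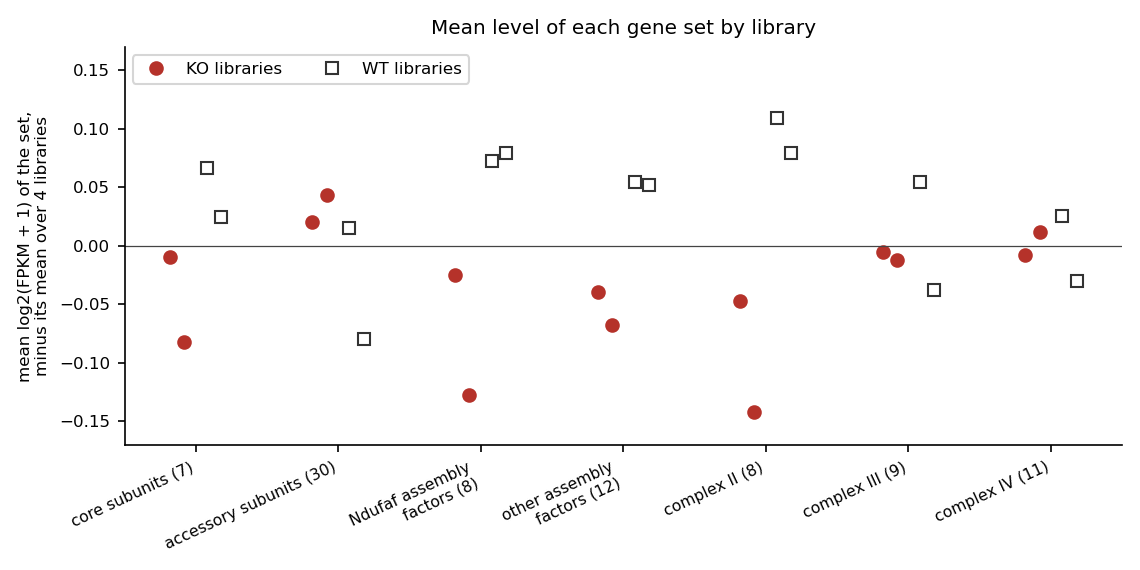
Mean log2(FPKM + 1) of each gene set in each library, minus the mean of that set over the 4 libraries, with KO libraries as filled circles left of WT libraries as open squares. Core subunits, both kinds of assembly factor and complex II are lower in both KO libraries, accessory subunits are higher in both, and the complex III and IV groups overlap. Accessory subunits averaged 6.402 and 6.426 in KO libraries, against 6.397 and 6.302 in WT libraries. The mean over all tested genes, not drawn, was also higher in both KO libraries (3.3625 and 3.387, against 3.3213 and 3.3536 in WT).

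The direction of change went with the length of the mRNA. The principal coding transcript in GENCODE M21 had a median of 704 bases for 29 accessory subunits, 1623 for the 7 core subunits and 1308.5 for the 8 assembly factors. Across the 44 tested complex I genes with such a transcript, Spearman's rho of length with log2 fold change was −0.43; the genes share libraries and are not independent. Of 10 complex I genes under 600 bases 8 were above 0, with a median of 0.17, and of 213 tested genes of that length 152 were above 0, with a median of 0.13. Among 16 complex I genes of 1000 to 2000 bases 5 were above 0, with a median of −0.13, and among 2416 tested genes of that length 914 were, with a median of −0.06. Genes of 4000 bases or more had a median of 0.11, and over all 9742 tested genes with a length rho was 0.23. Relative to the median of genes of like length, the median was −0.01 for core subunits, 0.04 for accessory subunits and −0.13 for assembly factors. Without that step the medians of the same genes were −0.02, 0.09 and −0.17. The part of length in the difference between roles was not tested further. GC content of the same transcripts had a rho of 0.17 with the change in complex I genes and −0.015 over all tested genes.

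**Figure D4:**
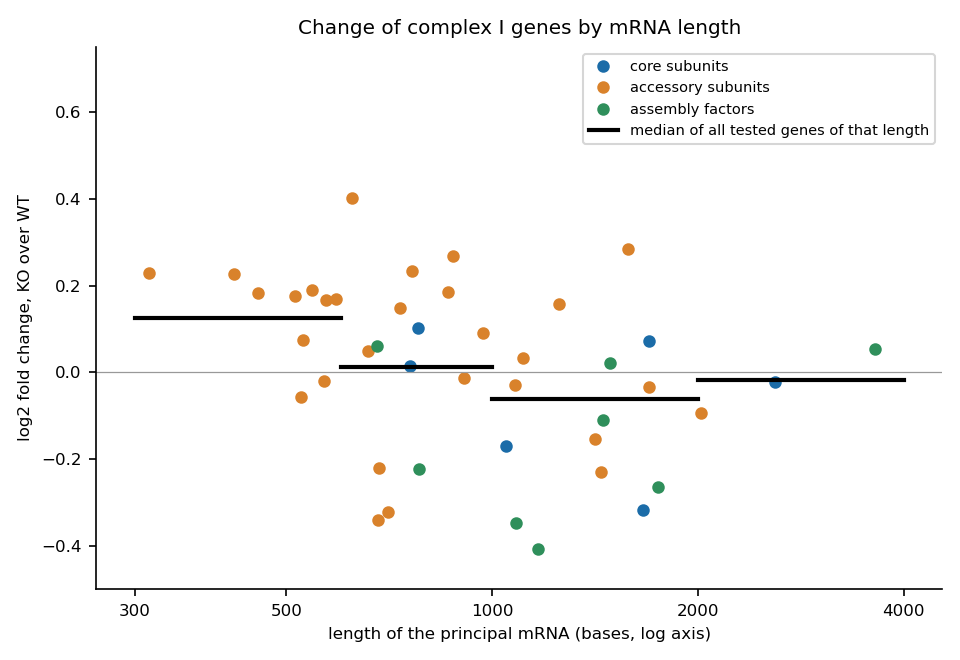
Log2 fold change, KO over WT, of complex I genes against the length of the principal mRNA (log axis), coloured by role. Black lines are medians of all tested genes in the same length range, at 0.13 below 600 bases, 0.01 from 600 to 1000, −0.06 from 1000 to 2000 and −0.02 from 2000 to 4000.

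The FPKM order of subunits depends on which length divides the reads. The authors' values divide by all annotated exon bases, which for Ndufb7 are 4522 bases, against 623 in its principal mRNA. With the length of the principal mRNA as divisor in place of all exons, the value stood at 861 for Ndufb7, above Ndufa2 at 523. The reads are still those of all exons, so any outside the principal mRNA raise values scaled this way. Ndufb2, an accessory subunit of the distal arm, was the lowest coding member at a mean of 2.25 FPKM over 5628 exon bases, and at 27.9 when scaled by its mRNA of 455 bases. Of those 455 bases, 229 are also annotated as exons of other genes, and reads there may have been assigned elsewhere. The span of the core subunits depends on the length too: scaled by the mRNA, Ndufs1 stood at 40.6 and Ndufs8 at 338. For Ndufs1 the exons cover 8086 bases and the principal mRNA 2590. The same length divides a gene's reads in every library.

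Pseudogenes of the family were at low levels. Ndufs5-ps had 4.77 and 5.52 FPKM in KO libraries and 2.38 and 8.31 FPKM in WT libraries, so the KO values lay inside the WT range, and Ndufa12-ps had 1.35 and 1.46 in KO and 1.35 and 1.05 in WT. Ndufab1-ps and Ndufb4c stayed under the level needed for a test. Each resembles its parent gene, so reads cannot be assigned with certainty.

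Promoter windows of 300 bases around the RefSeq start were at hand for 40 of the 49 genes. They were searched on both strands for short motifs of factors known for nuclear genes of respiration. The ETS-family motif of GABP (CCGGAAG) was in 6 of 40 (15.0%), against 9.12% of 27025 promoters of the same length, and the NRF1 motif (GCGCATGCG) in 4 (10.0%), against 1.81%. The YY1 motif (AAGATGGC) was in 8 (20.0%), against 2.88%, and the CREB motif (TGACGTCA), its own reverse complement, in 3 (7.5%), against 1.88%. CCAAACCAC, the middle of the published RREB1 consensus, was in 0 of 40, against 0.278%. The 27025 promoters, 1 for each gene, were not limited to genes detected in these libraries. The shares therefore do not set complex I genes against genes of like expression. GABP and YY1 matches can overlap, since one motif ends and the other begins with AAG, and NRF1 can match both strands at neighbouring bases. YY1 matches were in 2 of 14 promoters of genes with both KO libraries higher, 3 of 10 with both lower and 3 of 16 with overlapping groups.

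Shown here are the promoters of the genes with the largest positive and negative log2 fold changes, Ndufb7 and Ndufaf5, and of Ndufb8, the accessory subunit with the lowest value (RefSeq, GRCm38.p6, each 5′ to 3′ on the strand of the gene). Capitals mark matches to the motifs above. Ndufb7 lies at chr8:83566508-83566807 on the plus strand, Ndufb8 at chr19:44555393-44555692 on the minus strand and Ndufaf5 at chr2:140170396-140170695 on the plus strand.
Ndufb7: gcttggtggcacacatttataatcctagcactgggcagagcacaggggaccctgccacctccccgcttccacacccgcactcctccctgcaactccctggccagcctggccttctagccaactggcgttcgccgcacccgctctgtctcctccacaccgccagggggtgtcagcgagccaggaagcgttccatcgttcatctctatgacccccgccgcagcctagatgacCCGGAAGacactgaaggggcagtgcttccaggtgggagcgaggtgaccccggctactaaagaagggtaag
Ndufb8: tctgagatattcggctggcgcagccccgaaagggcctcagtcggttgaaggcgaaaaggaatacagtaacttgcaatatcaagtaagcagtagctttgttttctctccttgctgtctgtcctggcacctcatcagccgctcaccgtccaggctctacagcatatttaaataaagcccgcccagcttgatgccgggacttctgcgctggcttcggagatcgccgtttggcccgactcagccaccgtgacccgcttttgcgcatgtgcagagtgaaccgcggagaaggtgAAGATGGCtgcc
Ndufaf5: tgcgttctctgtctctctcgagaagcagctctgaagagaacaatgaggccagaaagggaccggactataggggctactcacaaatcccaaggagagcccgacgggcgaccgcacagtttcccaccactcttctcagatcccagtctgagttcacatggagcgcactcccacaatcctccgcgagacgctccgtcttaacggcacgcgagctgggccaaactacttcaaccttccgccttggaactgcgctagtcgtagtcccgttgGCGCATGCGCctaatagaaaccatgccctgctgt
The match in Ndufb7 is GABP, that in Ndufb8 is YY1, close to the 3′ end of the window, and that in Ndufaf5 is a single NRF1 stretch that matches on both strands. Each of these genes holds a different motif, and a match is a description of letters.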

How the data were processed

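Poly(A) RNA of 2 KO and 2 WT libraries was sequenced. CASAVA, HISAT2 2.1.0, featureCounts, DESeq2 and the build GRCm38 are named in the submitters' processing notes, with no role or order. The authors deposited 1 table of FPKM values with 1 added to each, read from the values because the file header names no unit; here the 1 was subtracted. Multiplied by exonic length in GENCODE M21 (16003 of 16442 symbols matched), values of up to 30 reads fell on whole multiples of 1 read, within 0.05, for 99.0% to 99.2% of values, and reads were recovered for 15793 genes. The steps gave depths of 16590830 to 18451251. At these depths 3 reads on 2 kb of exons are 0.0813 to 0.0904 FPKM, counting error only.

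Tests used limma 3.58.1 (R 4.3.3) with trend on log2(FPKM + 1), group as the only term, two-sided, for genes averaging 1 FPKM or more; 2 of the 49 members failed this filter. Fold changes on this scale understate those of low genes. Library preparation is not described as stranded. Members, arms, lists and rules were chosen with earlier results of these data known, and support nothing by themselves; every member could be named. Setting the 4 pseudogenes apart was decided after their values were seen. The values of 1 member are not reported here, though counts and medians include it. The fit was also run on simulated reads, with changes set larger than any of a complex I gene in the main fit. The spread of those reads was fixed in advance, so the run does not show how well changes of this size are found. Alternatives were a pseudocount of 0.1, no filter, limma-voom with TMM scaling on recovered reads, median centring, a replicate block and leaving out each library.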

Additional observations from a re-analysis of the deposited data

How the results depend on the processing

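Counts over all genes moved with the processing. Genes higher and lower in KO numbered 71 and 48, and 22 and 10 with no filter on level, 358 and 320 by limma-voom on recovered reads, and 45 and 28 with values centred on the median. With 1 library left out they ran from 4 to 50 higher and from 2 to 14 lower, both fewest without WT replicate 1. The titles number the libraries 1 and 2 in each group; same-numbered libraries deviated together with r = 0.009, so the numbers are not taken as pairs, and with the replicate block the counts were 40 and 26. Counts of complex I genes that passed stayed at 0 in each direction under every alternative run except limma-voom, where 1, Ndufb7, was higher (log2 fold change 0.39). The unadjusted counts of 5 higher and 9 lower became 2 and 10 with centring and 2 and 1 without KO replicate 2.

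The complex I median of 0.0487 became 0.0132 by limma-voom and 0.0136 with centring, and without the pseudogenes, an alternative added after the data were seen, 0.0318. With 1 library left out it ran from −0.0208, in the fit that lacked WT replicate 2, to 0.0596. In the same fits the core median of −0.0225 ran from −0.101 to −0.0309, the accessory median of 0.12 from 0.0662 to 0.177, and the assembly factor median of −0.167 from −0.244 to −0.0853. Relative to genes of like mRNA length, also added after the data were seen, the accessory median was 0.0428. That value covers the 29 accessory subunits with a length, whose median without this step was 0.0901. The cause of these moves was not tested. The median of all tested genes was 0.025, and −0.01 with centring. No complex I gene with an unadjusted p below 0.05 changed sign under any alternative run. Few reads limit the values of Ndufab1-ps, Ndufb4c, Ndufaf5 and Ndufb2, and 2 libraries a group limit every test.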
